A study of Mus musculus with 21 samples.

Results

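A diet rich in fat, given without the second hit of renin, was compared with chow in the mouse heart. The comparison covered 10 of the 21 libraries of the series, 6 hearts from mice on the high-fat diet and 4 from mice on chow, chosen by the diet and virus named in the sample titles. The mice were males of the inbred C57BL/6NJ substrain with no named transgene or deletion, and entered the diets at 8 to 10 weeks of age. The diet held 60% of its energy as fat and was fed for 10 weeks; whether it went on until collection is not given in the sources used here. The titles call these 10 hearts no virus, whereas the series description says that control mice received a null vector behind the eye and that hearts were taken 6 weeks after the injection, so both groups are taken to share that injection. The other 11 hearts, 6 with chow and 5 with the high-fat diet, came from mice given an adeno-associated virus carrying renin, and served for the spread between libraries and for a second reading of the diet effect. Whole-heart RNA was sequenced, 1 library per sample. The labels do not say that each sample is a different animal, so p-values measure the spread between these samples.

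The heart draws most of its energy from fatty acids. They enter through the transporter CD36, are carried by the binding protein FABP3, pass into mitochondria through the carnitine shuttle and are shortened by the enzymes of beta-oxidation. Fatty acids also bind the nuclear receptors of the PPAR family, which activate the genes of that same route, and high fatty acid supply is known to go with lower use of glucose in heart muscle.

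Libraries differed in ways that followed the groups. Gene reads were 19.9 ± 1.32 M (M, mega) in chow (SD, n = 4) and 24.96 ± 1.26 M on the high-fat diet (n = 6), without overlap (exact two-sided permutation test, p = 0.009524, the smallest that 4 against 6 can give). The cardiomyocyte markers were present in all 10 libraries, their summed level was 66860 to 75540 CPM (counts scaled to a fixed total of gene reads) in chow and 61710 to 67960 on the diet, and 3 of the 10 markers were lower at an unadjusted p under 0.05. In bulk tissue, fewer cells of a type and less RNA per cell cannot be told apart. Atrial transcripts stood out in 1 library of each group, replicate 3 of chow and replicate 3 of the high-fat diet: Myl7, the atrial myosin light chain, measured up to 262 CPM in chow and 231 CPM on the diet, and in these 2 libraries alone was it above the trace level of the others. Adipocyte markers summed to 359 to 436 CPM in chow and 365 to 650 CPM on the diet, and of the 7 tested 0 were higher and 1 lower at that p, with a median log2 fold change of -0.83. Fabp4 and Lipe carried most of these sums; the defining marker Adipoq reached at most 2.68 CPM in chow and 1.89 CPM on the diet, and Cfd 17.4 and 1.09 CPM. Of 14 markers of central neurons and glia, 7 were higher on the diet at that p, with sums of 176 to 186 CPM against 178 to 251 CPM; only 2 were higher without the 2 libraries that carried atrial transcripts. The results without the 2 libraries with atrial transcripts are given below; the part of the other markers was not tested.

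Few genes passed the test. Levels are CPM scaled by TMM, and differences are log2 fold changes, high-fat diet minus chow, from edgeR's quasi-likelihood F test with Benjamini-Hochberg adjustment over all 15208 genes tested; those with an adjusted p under 0.05 are named called genes. They numbered 10, or 0.0658% of those tested, with 2 higher (0.0132%) and 8 lower (0.0526%). At an unadjusted p under 0.05 there were 1667 genes, or 11%, of which 876 were higher (5.76%) and 791 lower (5.2%). The median log2 fold change over all genes was 0.01 and the median absolute value 0.11. In 161 genes every heart on the diet was above every chow heart (1.06%), and in 206 every one was below (1.35%).

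The called genes fell into a set of protein-coding genes and a set of processed pseudogenes. Hk1, Tnfaip2 and Dusp5 fell, mt-Nd3 and Zfp35 rose, and the other 5 were processed pseudogenes, all of which fell. Hexokinase 1 (Hk1, ENSMUSG00000037012, GRCm38 chromosome 10, 62268855 to 62379908) phosphorylates glucose after its entry into the cell. Its level was 208, 221, 188 and 186 CPM in the 4 chow hearts, and ranged from 141 to 170 CPM on the diet with a median of 162 CPM. All 6 hearts on the diet lay below the lowest chow heart. For Hk1 this gave a log2 fold change of -0.34 ± 0.0659 (SE) and an adjusted p of 0.04995, just inside the threshold. Just outside it stood Clip4, a microtubule-binding protein, and the pseudogene Gm5844, both with an adjusted p of 0.0521.

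Tnfaip2 (chromosome 12, 111442469 to 111455018), a gene first known for its induction by tumour necrosis factor, measured 46.4, 48.8, 44.03 and 43.6 CPM in chow. On the high-fat diet it ranged from 28.1 to 36.7 CPM with a median of 33.7 CPM, so the groups did not overlap. Its log2 fold change was -0.46 ± 0.0818 (SE; adjusted p = 0.0393). Dusp5 (chromosome 19, 53529109 to 53542431), a nuclear phosphatase that switches off the kinase ERK and is itself induced by ERK signalling, measured 9.27, 8.78, 8.62 and 10.96 CPM in chow. Its range on the diet was 5.59 to 7.60 CPM with a median of 6.29 CPM, again all below chow. The log2 fold change of Dusp5 was -0.52 ± 0.0959 (adjusted p = 0.0394). Zfp35, a zinc finger protein, went the other way, from 3.59, 4.56, 5.04 and 4.46 CPM in chow to between 5.59 and 7.28 CPM, a log2 fold change of 0.61 ± 0.114 (adjusted p = 0.0423).

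mt-Nd3 (mitochondrial genome, 9459 to 9806), which codes for a subunit of respiratory complex I, measured 1062, 891, 930 and 985 CPM in chow. On the diet it ranged from 1151 to 1654 CPM with a median of 1392 CPM, above every chow heart, and its log2 fold change was 0.53 ± 0.0938 (adjusted p = 0.0393). The reads of all genes on the mitochondrial genome together made up 32.9% ± 0.725 of gene reads in chow (n = 4) and 36% ± 1.78 on the diet (n = 6), 3.14 percentage points more (exact two-sided permutation test, p = 0.01905). The 13 protein-coding mitochondrial genes all had a log2 fold change above 0, from 0.07 to 0.53 with a median of 0.23; transcripts of this genome are cut from shared precursors and are not independent. Of these, 8 were higher at an unadjusted p under 0.05, among them mt-Atp6 at 0.26 ± 0.0844 (adjusted p = 0.255), and mt-Nd3 was the gene called. Among nuclear-coded subunits 1 of 37 in complex I (Ndufa3) and 1 of 41 in complexes II to V (Sdhc) were higher at that p, beside 5.76% of all genes, with medians of 0.06 and 0.04. With 1 library left out the mitochondrial count ranged from 5 to 12, and it was 5 without chow replicate 1 or 3, without high-fat replicate 2 or 5, and without the chow renin group in the fit.

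**Figure D1:**
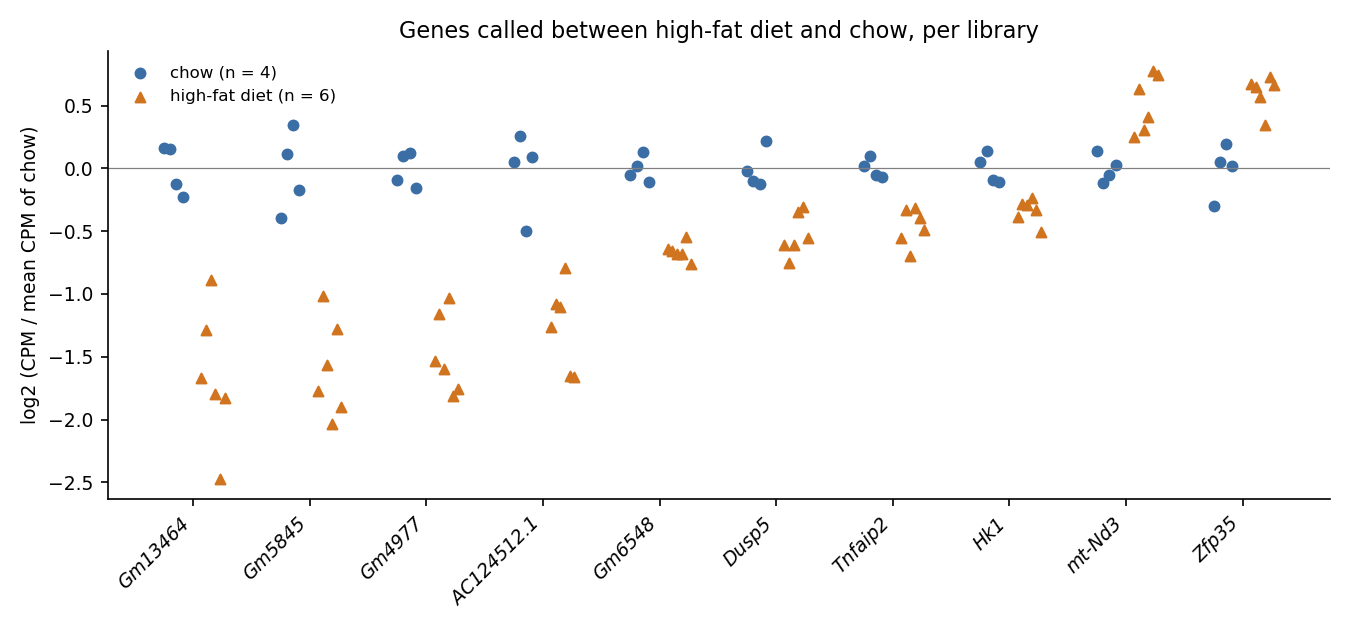
Level of the 10 called genes in each of the 10 libraries, as log2 of CPM over the mean CPM of the 4 chow hearts (vertical axis, log scale), with chow as circles and the high-fat diet as triangles. In each gene the 6 hearts on the diet lie wholly to one side of the 4 chow hearts, below them in 8 genes and above them in 2.

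The calls depended on single libraries. Without any 1 of the 4 chow libraries, or without high-fat replicate 5 or 6, edgeR called 0 genes, and without high-fat replicate 1, 2 or 3 it called 1, 3 or 2; the genes at an unadjusted p under 0.05 then numbered 1286 to 1880 over all single-library omissions. DESeq2 on all libraries called 124 genes, including these 10. Without both libraries with atrial transcripts edgeR called 0, with 1640 genes at an unadjusted p under 0.05, and with the processed pseudogenes left out it called 0, with 1545. In every one of these fits the 10 genes, where tested, kept the direction of their difference.

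Processed pseudogenes, DNA copies of spliced messenger RNAs inserted elsewhere in the genome, made up 5 of the 10 called genes and 20 of the 50 genes with the smallest p, against 2.99% of the genes tested. Their reads are uncertain, because the copies are nearly identical to the genes they derive from and the quantification divides shared reads between them; the part of this division in their lower counts was not tested. Gm4977 (ENSMUSG00000111613, chromosome 9, 17732670 to 17733931), whose closest protein-coding transcript is that of the elongation factor Eef1a1 with 94.07% identity, measured 6.53, 7.44, 7.58 and 6.25 CPM in chow. On the diet it ranged from 1.98 to 3.39 CPM with a median of 2.35 CPM, and its log2 fold change of -1.45 ± 0.236 had the smallest p of all genes (adjusted p = 0.0393). Gm5845 (chromosome 3, 33621608 to 33622403), a copy of the ribosomal protein gene Rpl7a with 98.24% identity, measured 1.25, 1.78, 2.08 and 1.45 CPM in chow and 0.399 to 0.810 CPM on the diet. Gm13464 (chromosome 2, 43518464 to 43519398), a copy of the glycolytic gene Gapdh with 99.21% identity, measured 1.395, 1.39, 1.14 and 1.07 CPM in chow and 0.225 to 0.673 CPM on the diet. Gm6548 (chromosome 17, 78850792 to 78851956) and AC124512.1, both copies of Eef1a1, had log2 fold changes of -0.66 ± 0.126 and -1.22 ± 0.228. The closest protein-coding genes had values near 0: Eef1a1 had a log2 fold change of 0.02 ± 0.102, and those of Rpl7a and Gapdh were -0.00243 ± 0.0656 and -0.09 ± 0.109.

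Stretches of 60 bases show which bases within them tell a copy from the coding sequence. Each was chosen as the gap-free coding stretch with most differences, counted over both copies for Eef1a1, so it does not stand for the whole copy. Each is given 5′ to 3′ on the strand of its gene, from the GENCODE M21 transcripts on GRCm38, with capitals at the bases that differ between the gene and its copy; for Eef1a1, coding bases 449 to 508, capitals mark a difference from either copy, and for each copy a difference from Eef1a1.
Eef1a1: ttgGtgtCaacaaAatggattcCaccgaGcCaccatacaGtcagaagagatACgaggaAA
Gm4977: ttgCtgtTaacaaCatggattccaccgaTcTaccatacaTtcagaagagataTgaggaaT
Gm6548: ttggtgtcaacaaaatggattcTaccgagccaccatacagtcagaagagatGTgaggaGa
In this window Gm4977 differs from Eef1a1 at 8 bases and Gm6548 at 4. The pairs below, coding bases 97 to 156 of Rpl7a and 544 to 603 of Gapdh, differ at 2 and 3 bases.
Rpl7a: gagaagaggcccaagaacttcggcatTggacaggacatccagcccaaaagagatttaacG
Gm5845: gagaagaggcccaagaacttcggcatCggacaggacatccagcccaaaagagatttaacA
Gapdh: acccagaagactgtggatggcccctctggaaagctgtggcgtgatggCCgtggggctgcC
Gm13464: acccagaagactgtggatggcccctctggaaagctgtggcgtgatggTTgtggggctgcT

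Of 455 processed pseudogenes tested, 274 had a log2 fold change below 0 and 180 above, with a median of -0.16. At an unadjusted p under 0.05, 111 were lower and 16 were higher, and in 58 every heart on the diet lay below every chow heart; the shares over all genes were 5.2% lower, 5.76% higher and 1.35% without overlap below. A pseudogene that passed the filter on low counts through its chow libraries alone had to be lower on the diet. These counts thus describe the genes that passed. Without that filter 248 of 3963 were lower, where 2034 of all 23689 genes passed that p in either direction. With a mean of at least 5 CPM required, 4 pseudogenes were lower, where 1067 of all 9895 genes passed in either direction. With the fit restricted to the 10 libraries, 70 pseudogenes were lower. Of the 111, 110 had a protein-coding match, to 69 different genes, most often Eef1a1 and Gapdh with 9 copies each, and in 34 the match coded for a ribosomal protein, as in 85 of all 436 with a match. The median log2 fold change of these 110, chosen for being low, was -1.29, whereas that of their matches was 0.02, with a range of -0.46 to 0.49. The median identity to the match was 96.91% for these 110 and 96.8% for all 436. Their mean level was low, from 0.26 to 20.5 CPM with a median of 0.95 CPM. All processed pseudogenes together took 0.2208% ± 0.006 of gene reads in chow (n = 4) and 0.2033% ± 0.0194 on the diet (n = 6; exact two-sided permutation test, p = 0.1238).

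**Figure D2:**
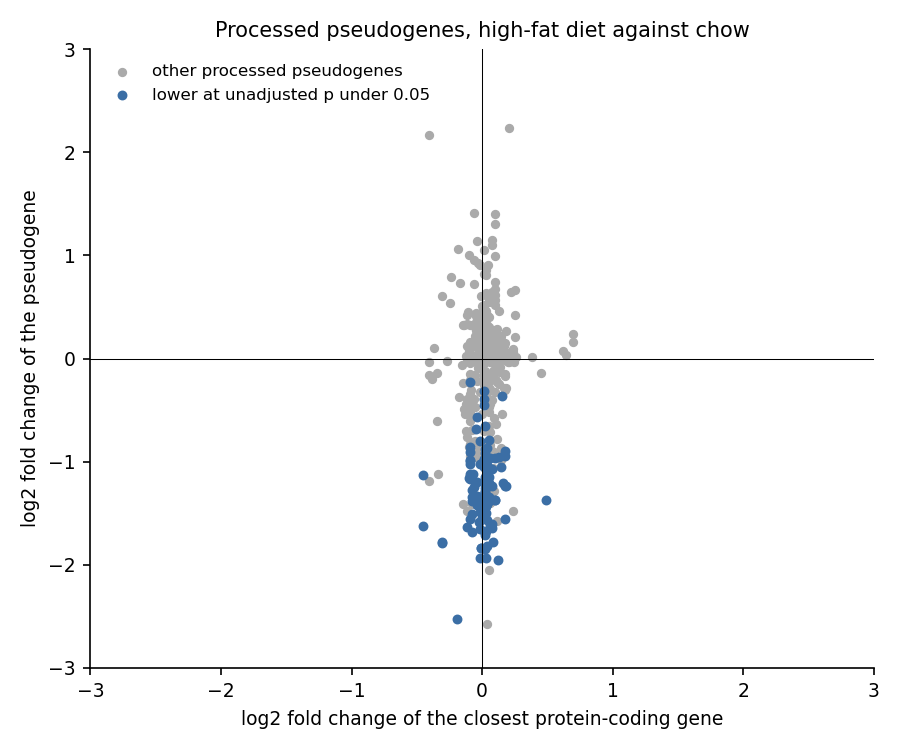
Log2 fold change, high-fat diet against chow, of each of 433 processed pseudogenes (vertical axis) against that of its closest protein-coding gene (horizontal axis); 3 further pseudogenes lie outside the axes. The 109 coloured points, lower at an unadjusted p under 0.05, reach far below 0 on the vertical axis while their closest genes stay between -0.46 and 0.49.

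Of the genes of fatty acid handling, some measured higher in 5 of the 6 hearts on the diet, and with all 6 in the fit none passed the adjusted threshold in edgeR's test. Acot1, an acyl-CoA thioesterase and PPAR target named after its values were seen, measured 12.9, 14.1, 12.6 and 15.6 CPM in chow. It measured 29.8 to 41.4 CPM in high-fat replicates 1, 2, 3, 5 and 6, and 14.2 CPM in replicate 4, within the chow range. The log2 fold change of Acot1 was 1.19 ± 0.422 (adjusted p = 0.317).

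High-fat replicate 4 differed from its group in this way in further fuel genes, whereas over all genes replicate 6 was the most distant: the chi-square over gene counts, per degree of freedom, was 35.6 to 49.9 in its pairs with the other hearts on the diet and 4.92 to 27.4 in the pairs without it. In 8 of 29 beta-oxidation genes the other 5 hearts on the diet were all above chow and replicate 4 was not; replicate 6 was the exception in 1 gene and no other replicate in any. Replicate 4 was the lowest heart on the diet in 15 of those 29 genes and in 12 of 24 PPAR targets. Over all 15208 genes, replicate 4 was the one heart not above chow in 132 genes, against 50 to 99 for the others, and the lowest heart on the diet in 2026 genes, against 1934 to 3472 for the others. In Gm4977 replicate 4 was below all chow hearts but nearest to them among the hearts on the diet, at 3.39 CPM against 1.98 to 3.11 CPM in the other 5. With replicate 4 left out, 57 genes were called, 18 higher and 39 lower, all 10 above among them; nothing in the labels marks this library, so the fit with all 6 stands as the result.

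Among the genes of fatty acid uptake, Cd36, the membrane transporter, measured 1272, 1313, 1131 and 1285 CPM in chow and 1376 to 1620 CPM on the diet, without overlap. Its log2 fold change was 0.27 ± 0.0776 (adjusted p = 0.181). Fabp3 (chromosome 4, 130308595 to 130315463), the heart's fatty acid binding protein, measured 2000, 2026, 1814 and 2014 CPM in chow and 2069 to 3011 CPM on the diet, with a median of 2620 CPM. The groups did not overlap, though replicate 4 was only slightly above the highest chow heart, and the log2 fold change was 0.38 ± 0.085 (adjusted p = 0.0959). Without replicate 4 the adjusted p of Fabp3 was 0.0159, and over all alternatives it ranged from 0.00428 to 0.294. Of the 16 genes tested in the uptake list, 2 were higher (Cd36, Fabp3) and 2 lower (the lipase Lpl and the acyl-CoA synthetase Acsl4) at an unadjusted p under 0.05, and the median was 0.20; DESeq2 called Cd36 and Fabp3.

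Of 29 genes of beta-oxidation, 13 were higher and 2 lower at an unadjusted p under 0.05, 22 had a log2 fold change above 0, and the median was 0.18. With edgeR none was called; DESeq2 called 2 of the 29, Acads and Slc25a20, both higher. The differences were small and ran along the pathway. In the carnitine shuttle, Cpt1b, the muscle form of the gate enzyme, had a log2 fold change of 0.19 ± 0.0779, the carrier Slc25a20 one of 0.37 ± 0.0993 and Cpt2 one of 0.29. The acyl-CoA dehydrogenases, which take the first step of each cycle, stood at 0.32 for the very long chain form Acadvl, 0.24 for the long chain form Acadl and 0.35 ± 0.0841 for the short chain form Acads. The trifunctional protein genes Hadha and Hadhb stood at 0.30 and 0.20, the thiolase Acaa2 at 0.34, and Decr1, needed for unsaturated fatty acids, at 0.47 ± 0.138. Decr1 measured 384, 392, 323 and 393 CPM in chow and 358 to 637 CPM on the diet, and replicate 4 was the heart at 358 CPM. The 2 lower members were Cpt1a, the liver form of the gate enzyme, at -0.19, and Ehhadh, a peroxisomal enzyme, at -0.41.

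The count of 13 rested partly on the chow library with atrial transcripts. It was 6 without chow replicate 3, 6 without both libraries with atrial transcripts and 8 without high-fat replicate 5, and over all single omissions it ranged from 6 to 15. Chow replicate 3 was the lowest chow heart in 12 of those 13 genes and in 23 of the 29, against 4399 of all 15208 genes, and also for Fabp3 and Cd36.

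**Figure D3:**
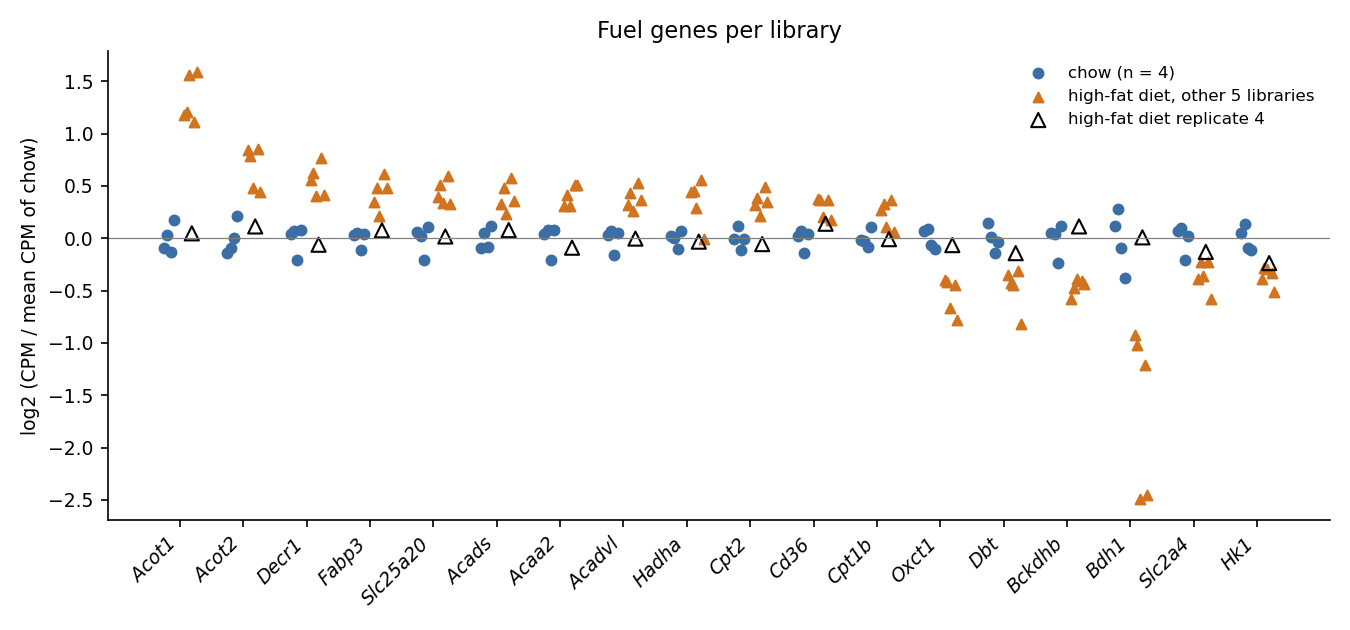
Level of genes of fatty acid, ketone, branched-chain amino acid and glucose use in each library, as log2 of CPM over the mean CPM of the 4 chow hearts (vertical axis, log scale), with chow as circles and the high-fat diet as triangles. The open triangle is high-fat replicate 4, which lies among the chow hearts in Acot1 (14.2 CPM) and Bdh1 (150 CPM), whereas the filled triangles are shifted.

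The PPAR target list had 9 of 24 genes higher and 2 lower at an unadjusted p under 0.05, with a median of 0.15. Besides Acot1 and Fabp3 these included the uncoupling protein gene Ucp2 (0.60), the thioesterase Acot2 (0.61) and the lipid droplet coat Plin5 (0.32). Pdk4, the kinase that closes pyruvate dehydrogenase and a gene often used as a readout of PPAR activity, measured 334, 467, 745 and 662 CPM in chow and 467 to 902 CPM on the diet, groups that overlapped (0.38 ± 0.209, adjusted p = 0.534; the log2 fold change was 0.19 without chow replicate 1). The PPAR response element holds the half-site AGGTCA. On either strand these letters were found in 16.3% of 32851 promoters of 300 bases (250 before to 50 after the start, RefSeq, GRCm38.p6), in 8 of 25 promoters of 21 PPAR target genes, in 4 of 23 promoters of beta-oxidation genes and in 3 of 17 promoters of the uptake list, to which Cd36 belongs. A promoter window of Cd36, chr5:17835847-17836146 on the minus strand, lies inside the annotated gene (17781690 to 17888801), not at its outer 5′ end. It is shown because it holds 1 match, in capitals, and the gene's groups did not overlap. A match is letters only.
Cd36: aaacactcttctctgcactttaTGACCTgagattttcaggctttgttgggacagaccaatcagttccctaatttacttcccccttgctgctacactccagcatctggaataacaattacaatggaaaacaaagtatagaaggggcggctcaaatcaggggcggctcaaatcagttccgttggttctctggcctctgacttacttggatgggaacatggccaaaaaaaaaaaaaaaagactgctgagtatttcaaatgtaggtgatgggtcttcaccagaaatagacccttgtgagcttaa

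Of 23 genes tested for the use of ketone bodies and branched-chain amino acids, 7 were lower and 0 higher at an unadjusted p under 0.05 (with edgeR, none was called; DESeq2 called 2 lower, Oxct1 and Dbt), 19 had a log2 fold change below 0, and the median was -0.12. Oxct1 (chromosome 15, 4026383 to 4155344), the rate-limiting enzyme of ketone body use outside the liver, measured 1017, 1030, 925 and 904 CPM in chow and 566 to 926 CPM on the diet, with a median of 720 CPM. Replicate 4 was the heart at 926 CPM, and the other 5 were below every chow heart, at 566 to 733 CPM. The log2 fold change of Oxct1 was -0.44 ± 0.109 (adjusted p = 0.131). Bdh1, which turns beta-hydroxybutyrate into acetoacetate, measured 162, 181, 140 and 114 CPM in chow. It measured 150 CPM in replicate 4 and between 26.6 and 78.4 CPM in the other hearts on the diet (-1.09 ± 0.407, adjusted p = 0.339). Bckdhb and Dbt, the E1 beta and E2 subunits of the complex that commits branched-chain keto acids to breakdown, had log2 fold changes of -0.34 ± 0.108 and -0.40 ± 0.0907 with adjusted p-values of 0.242 and 0.0983. Without replicate 4 the adjusted p was 0.0191 for Oxct1 and 0.0193 for Bckdhb and Dbt; over all alternatives the 3 genes spanned 0.0191 to 0.476. In the fit on the 10 libraries alone the count of lower genes was 4.

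Of 33 genes of glucose uptake, glycolysis and glycogen, 5 were lower and 1 higher at an unadjusted p under 0.05, with a median of -0.07, and Hk1 was the gene called; DESeq2 called Hk1 and Slc2a4. Slc2a4, the insulin-responsive glucose transporter GLUT4, measured 381, 390, 315 and 370 CPM in chow and 243 to 332 CPM on the diet; the groups overlapped where high-fat replicate 4 passed chow replicate 3 (-0.31 ± 0.0804, adjusted p = 0.138). The transporter Slc2a1 stood at -0.30 and the muscle enolase Eno3 at -0.29 ± 0.084. At the junction of glycolysis and the citric acid cycle, Pcx, pyruvate carboxylase, measured 44.7, 40.9, 44.8 and 41.7 CPM in chow and 24.2 to 36.02 CPM on the diet, without overlap. Its log2 fold change of -0.49 ± 0.104 had an adjusted p of 0.0959, and DESeq2 called it. Of the 22 genes of the citric acid cycle list 1 was higher and 2 lower, with a median of -0.001, and of 14 around pyruvate dehydrogenase only the phosphatase Pdp2 was past that p, at -0.41.

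Among 21 genes of lipid droplets 4 were higher and 2 lower at an unadjusted p under 0.05, with a median of 0.06; Plin4, a droplet coat, measured 40.4 to 42.8 CPM in chow and 39.2 to 84.9 CPM on the diet (0.59 ± 0.222, adjusted p = 0.339), and the lipase Mgll stood at 0.35. Among 35 genes of fatty acid and sterol synthesis 7 were lower and 2 higher, with a median of -0.05. The lower ones included Fasn (-0.41) and Acaca (-0.34 ± 0.0957), the committed enzymes of fatty acid synthesis, the acetate-activating Acss2 (-0.24) and Srebf1 (-0.21), a transcription factor of these genes. Acss2 groups did not overlap, with 37.9 to 41.5 CPM in chow and 31.4 to 36.1 CPM on the diet. Cat, the peroxide-removing catalase that lies in peroxisomes, measured 188 to 206 CPM in chow and 204 to 271 CPM on the diet (0.31 ± 0.0825, adjusted p = 0.152), and DESeq2 called it.

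**Figure D4:**
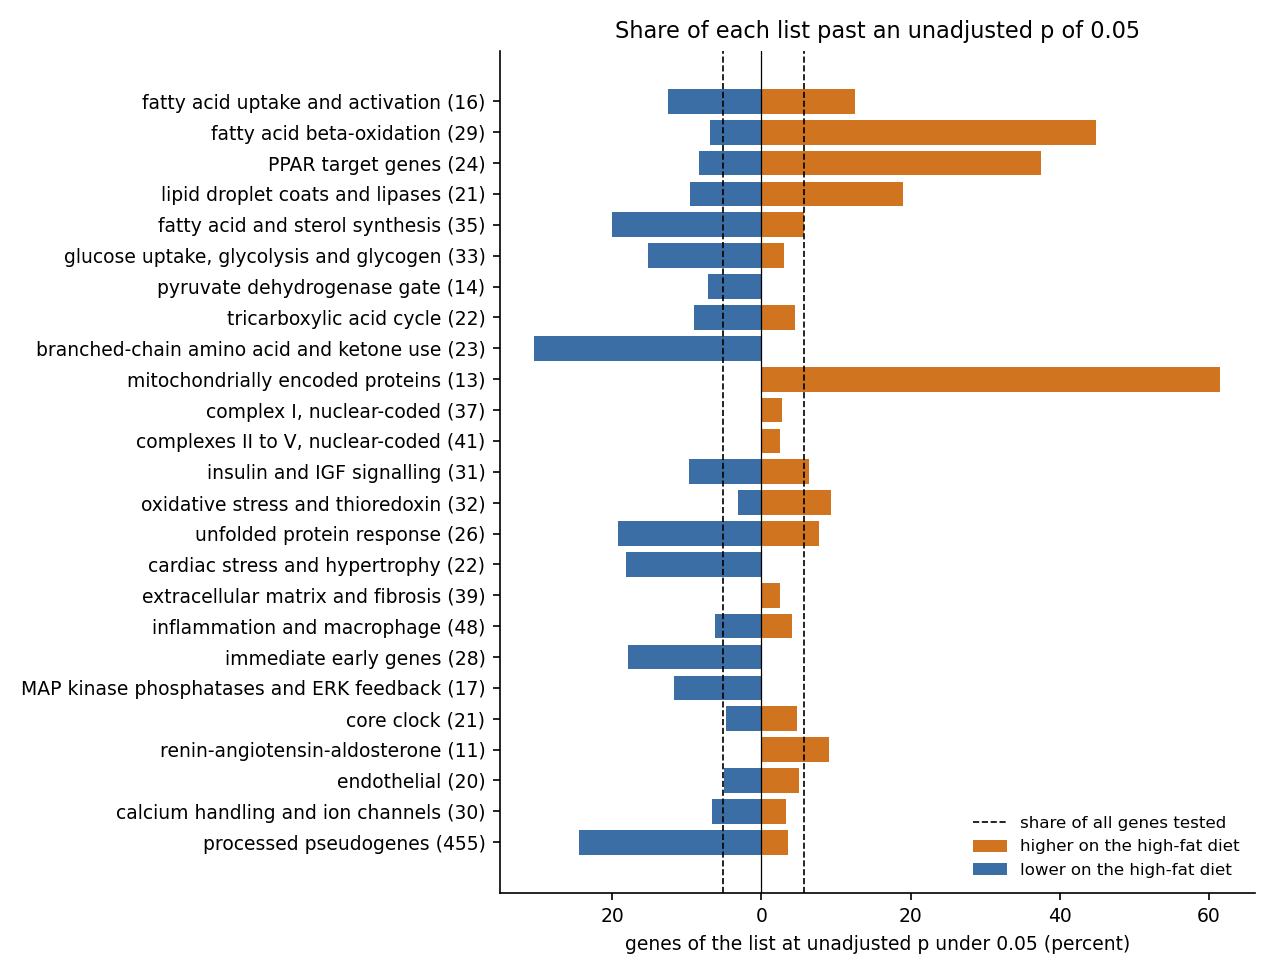
Percent of the tested genes of each list (number in brackets) past an unadjusted p of 0.05, to the right when higher and to the left when lower on the high-fat diet; dashed lines mark the shares over all genes, 5.76% higher and 5.2% lower. Lists of cell type markers are not drawn. Among the lists drawn, the longest bars to the right are mitochondrially encoded proteins (8 of 13) and beta-oxidation (13 of 29), and the longest to the left is branched-chain amino acid and ketone use (7 of 23).

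Genes of cardiac stress had no called member with edgeR or with DESeq2. Of 22 tested, 4 were lower and 0 higher at an unadjusted p under 0.05, 19 were below 0 and the median was -0.19. Nppa, which codes for atrial natriuretic peptide and is induced in the stressed ventricle, measured 263, 150, 534 and 193 CPM in chow and 27.2 to 247 CPM on the diet; the highest library of each group was replicate 3, the one with atrial transcripts. Its log2 fold change was -1.45 ± 0.656 (adjusted p = 0.432), and -0.95 without chow replicate 3. Acta1, the skeletal actin re-expressed under load and named after its values were seen, stood at -1.23 ± 0.553, and Myh6, the main adult myosin, at -0.18 ± 0.077. Of 39 genes of extracellular matrix 1 was past that p, the collagen cross-linking enzyme Lox at 0.49 ± 0.21, with a median of 0.13, and Col1a1 measured 78.0 to 155 CPM in chow and 74.3 to 249 CPM on the diet. Of 48 genes of inflammation and macrophages 2 were higher and 3 lower, with a median of 0.05, and Tnfaip2 was the gene called.

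Among genes of insulin signalling, Irs2, the insulin receptor substrate whose transcription is raised by fasting, measured 22.8, 30.6, 14.9 and 34.03 CPM in chow and 6.01 to 23.9 CPM on the diet (-0.91 ± 0.307, adjusted p = 0.281); of its list of 31 genes 2 were higher and 3 lower. Of 28 immediate early genes, transcription factors switched on within minutes of a stimulus, 5 were lower and 0 higher at an unadjusted p under 0.05, with a median of -0.11; edgeR called none, and DESeq2 called 3 lower (Fosl2, Junb and Nr4a2). Nr4a2 measured 6.23, 4.61, 3.89 and 8.58 CPM in chow and 1.41 to 3.80 CPM on the diet, without overlap (-1.05 ± 0.218, adjusted p = 0.0748), and Junb stood at -0.61 ± 0.173. Fos itself overlapped, with 5.56 to 16.6 CPM in chow and 2.07 to 9.94 CPM on the diet. Besides the called Dusp5, the ERK target Etv5 was lower at that p among 17 phosphatase and feedback genes. In the unfolded protein response list 5 of 26 genes were lower and 2 higher, and DESeq2 called 3 lower (Calr, Hsp90b1 and Sdf2l1); Sdf2l1, a chaperone cofactor of the endoplasmic reticulum, measured 10.8, 7.22, 7.63 and 6.11 CPM in chow and 3.36 to 5.26 CPM on the diet (-0.92 ± 0.198, adjusted p = 0.0959), and Calr, calreticulin, stood at -0.27 ± 0.0707.

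Of the remaining lists, core clock genes had 1 of 21 higher, Arntl, at 1.59 to 2.04 CPM in chow and 2.48 to 2.88 CPM on the diet (0.55 ± 0.222, adjusted p = 0.373), and 1 lower, Ciart (-0.57). The hour of collection is not given in the sources used here. With a score of clock genes as a covariate 17 genes were called, 6 of the 10 among them. Among 30 genes of calcium handling and ion channels, Kcnip2, a subunit of the transient outward potassium channel, measured 159 to 189 CPM in chow and 73.3 to 159 CPM on the diet (-0.54 ± 0.179, adjusted p = 0.27). Of 11 genes of the renin-angiotensin system 1 was past an unadjusted p of 0.05, the receptor Mas1 at 0.63 ± 0.274, and of 20 endothelial genes the carbonic anhydrase Car4 was higher (0.56 ± 0.147, called by DESeq2) and Egfl7 lower (-0.30, and -0.15 without chow replicate 2).

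The same diet contrast in renin-treated mice, 5 high-fat hearts against 6 chow hearts that share no library with the comparison above, called 3441 genes (22.6%). Of the 10 called genes, 8 had the same sign there, 5 were called with that sign, and in 5 the diet effects differed by the test of their difference, which called 10.4% of all genes. The 10 were chosen by their values without renin, which also enter the test of the difference, so that test is not independent of the choice. The pseudogenes Gm4977, Gm5845, AC124512.1 and Gm6548 fell under renin as well, by -1.96 ± 0.227, -1.93 ± 0.258, -1.79 ± 0.217 and -0.65 ± 0.116 on the log2 scale, and Dusp5 stood at -1.37 ± 0.0906. The mean level of Dusp5 without and with renin was 9.404 and 14.23 CPM on chow, and 6.549 and 5.487 CPM on the high-fat diet. For Hk1, Tnfaip2, Gm13464 and Zfp35 the values under renin were 0.11, -0.01, -0.01 and -0.04, and the difference of the diet effects was called for each gene (adjusted p = 0.00153, 0.00913, 0.00764 and 0.00606). These p-values carry the same limit of choice. For mt-Nd3 the value under renin was 0.20 ± 0.0865, and the difference was not called (adjusted p = 0.104). Of the 455 processed pseudogenes 137 were called lower under renin and 6 higher, against 12.8% and 9.81% of all genes. A pseudogene that passed the filter on low counts through the chow renin libraries alone had to be lower there, so these counts too describe the genes that passed.

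Fuel genes were mixed in that second comparison. Fabp3 rose under renin by 0.41 ± 0.0787 (adjusted p = 0.000371), close to its value without renin, and Slc25a20 rose by 0.30 ± 0.0919 (adjusted p = 0.0213). Kyat3, an aminotransferase of the kynurenine pathway, and Pcx fell there, with -0.65 ± 0.0927 and -0.53 ± 0.0992 beside -0.45 ± 0.0967 and -0.49 ± 0.104 without renin. The branched-chain gene Bckdhb fell by -0.63 ± 0.103, whereas Oxct1 stood at -0.02 ± 0.103. Acot1 stood at -0.42 ± 0.38 under renin, and the difference of its diet effects was not called (adjusted p = 0.0831). In the beta-oxidation list 3 of 29 genes were called higher and 1 lower under renin, with a median of 0.08. Over all genes 9.81% were called higher and 12.8% lower, so the higher count of that list was near the share of all genes. In fatty acid and sterol synthesis 2 of 35 were called higher and 19 lower, with a median of -0.34. Of the 33 glucose genes 10 were called higher and 4 lower, with a median of 0.18. Of the 23 ketone and branched-chain genes 1 was called higher and 9 lower, with a median of -0.16.

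**Figure D5:**
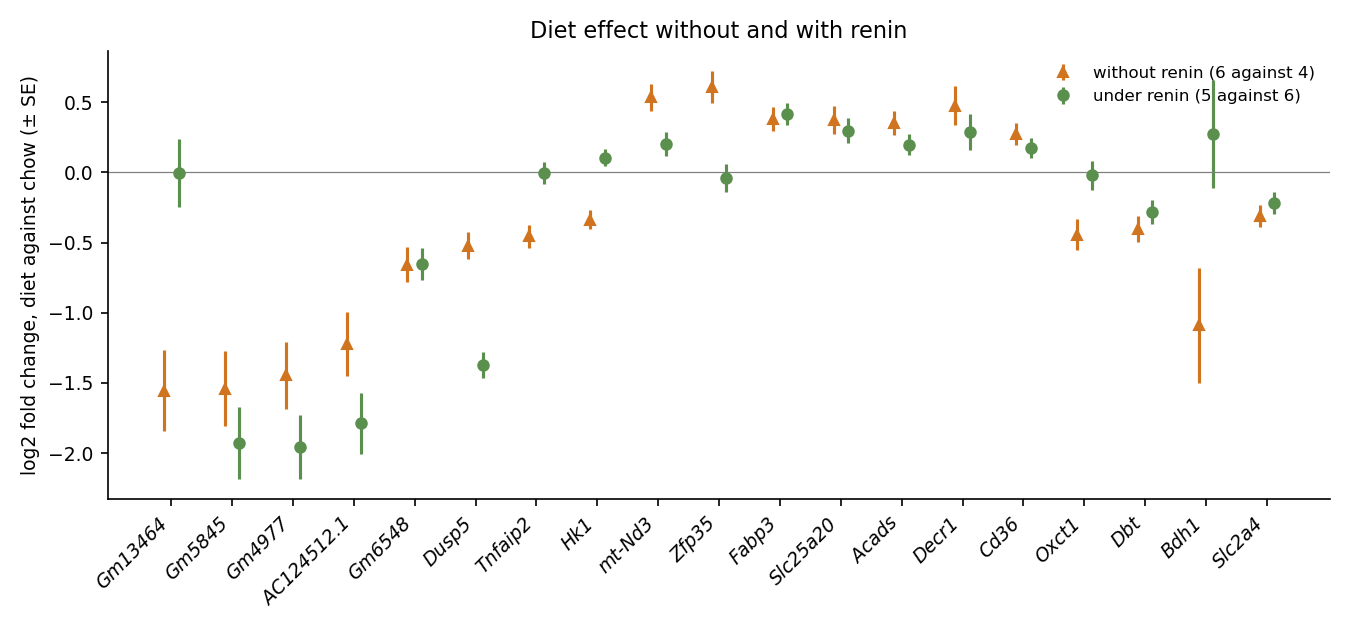
Log2 fold change of high-fat diet against chow (vertical axis) with its standard error for named genes, without renin (triangles, 6 against 4 hearts) and under renin (circles, 5 against 6). The pseudogenes Gm4977 and Gm6548 lie below 0 in both, whereas Gm13464, Tnfaip2 and Zfp35 lie near 0 under renin.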

How the data were processed

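The authors deposited, per the file headers, a Salmon transcript table for each library with estimated counts (expected counts, not normalized) and TPM. Salmon 1.10.2, DESeq2 1.40.2 and the builds GRCm38 and mm10 are named in the submitters' processing notes; index and options are not given in the sources used here. Estimated counts of the 97.9% of 119215 transcripts matched to GENCODE M21 were summed to genes and rounded; the deposited TPM entered only an alternative (scaled TPM). filterByExpr kept 15208 of 23689 genes with reads, which held 99.96% of reads. One edgeR 4.0.16 fit (R 4.3.3; TMM, factors 0.886 to 1.03 in the 10 libraries; robust; common biological coefficient of variation 0.154) over all 21 libraries, with groups as terms, gave the quasi-likelihood F test and Benjamini-Hochberg adjustment. Each standard error was obtained from the fold change and its F. The fit was checked on simulated counts. Library totals were 18.7 to 26.2 M (mega) reads. Between libraries of a group the chi-square per degree of freedom was 3.5 to 49.9, so none was a repeat deposit.

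Genes named are the called ones, the 20 of smallest p and, per list, its first gene and the 2 (fuel lists 3) of smallest p with a mean of at least 1 CPM; others are examples from list counts, chosen after their values were seen. Members and lists were chosen with earlier results of these data known, so list counts carry no test of their own. Pseudogene matches came from blastn 2.17.0. Alternatives covered other scaling, filters, DESeq2 1.42.0, fewer groups, thinning, a clock covariate, a replicate block and single-library omissions; leaving out atrial libraries or pseudogenes was added after seeing the data. Lists for Schwann cells, lymphocytes, erythroid blood, fibroblasts, smooth muscle, mesothelium, skeletal muscle, lung and thymus were also measured. Of these, smooth muscle had 1 of 9 tested genes higher, and lymphocytes (1 of 9) and mesothelium (1 of 7) 1 lower each, at an unadjusted p under 0.05; the others had 0. Some items are not reported here.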

Additional observations from a re-analysis of the deposited data

Results flagged for a closer look

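Among 166 groups of values of named genes, 16 single libraries lay far from the rest of their group by Dixon's criterion, which chance alone meets in about 1 of 20 groups. Chow replicate 3, which carried atrial transcripts, was the outlying chow heart for Fabp3 (1814 CPM), Decr1 (323 CPM), Pdhb (607 CPM), Nnt (614 CPM), Scd1 (32.7 CPM) and Col1a1 (155 CPM). Nnt overlaps another annotated gene of the same name, so the division of its reads is uncertain. High-fat replicate 3, the other library with atrial transcripts, was outlying for Scd1 (27.98 CPM) and Slc12a4 (69.7 CPM). High-fat replicate 4 was outlying for Bckdhb (60.9 CPM) and Kyat3 (27.4 CPM). High-fat replicate 6 was outlying for Cs (840 CPM), Mdh1 (28.5 CPM), Myh6 (24940 CPM), Pecam1 (221 CPM), Car4 (29.6 CPM) and Ryr2 (722 CPM). These libraries are 4 of the 10.

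Many of the 83 named genes were chosen by their p without renin, from values that also enter the difference given next. The diet effect without renin minus that under renin was called for 16 of the 83 named genes, on the log2 scale. It was -0.45 for Tnfaip2, 0.85 for Dusp5, -1.55 for Gm13464, 0.65 for Zfp35 and -0.44 for Hk1 among the called genes. It was -0.41 for Clip4, -0.37 for Slc12a4, 0.47 for Acsl4, 1.04 for Plin4, -0.45 for Acss2 and -0.40 for Calr. It was -0.66 for Actc1, 1.85 for Lox, 2.05 for Il6, -0.67 for Ace and 0.63 for Car4. Lox and Il6 had log2 fold changes of 0.49 and -0.47 without renin beside -1.35 and -2.53 under it. Mean levels of Lox without and with renin were 9.005 and 36.25 CPM on chow, and 12.65 and 14.17 CPM on the high-fat diet. Those of Il6 were 2.113 and 8.062 CPM on chow, and 1.524 and 1.395 CPM on the diet. In both genes chow with renin was the highest group.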

How the results depend on the processing

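The 10 calls lay close to the threshold (adjusted p 0.0393 to 0.04995), and their number moved with most choices. DESeq2 called 124 (49 higher, 75 lower), the 10 libraries alone 5 (0 higher, 5 lower; 2 of the 10 shared), the fit without the chow renin group 3 (0 higher, 3 lower), a mean of at least 5 CPM 4 (2 lower) and the clock covariate 17 (15 lower). Genes called higher numbered 1, in place of 2, with no filter, thinned libraries, scaled TPM or no mitochondrially encoded genes. Single-library omissions gave 0 to 57 calls (0 to 18 higher, 0 to 39 lower). Without both atrial libraries, or without pseudogenes, there were 0 calls, 0 higher and 0 lower. The genes at an unadjusted p under 0.05 numbered 1067 at a mean of at least 5 CPM.

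The chow and high-fat samples share replicate numbers, and the deviations of same-numbered libraries correlated at 0.0656, 0.0739, 0.421 and 0.0508. Replicate 3, with the value of 0.421, holds the atrial library of each group. These values cannot decide whether the numbers pair the samples, and the main fit treats the samples as unpaired. With a replicate block 0 genes were called, 0 higher and 0 lower, 1518 had an unadjusted p under 0.05, and the beta-oxidation count was 7.

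List counts that moved by more than 1.5 times were as follows. Lower pseudogenes numbered 248 with no filter, 4 at 5 CPM and 70 in the 10 libraries; beta-oxidation genes 6 without the atrial libraries and 6 to 15 over single omissions. Mitochondrially encoded genes numbered 5 without the chow renin group and 5 to 12 over single omissions, branched-chain and ketone genes 4 in the 10 libraries, and neuron and glia markers 4 at 5 CPM and 2 without the atrial libraries. Calls under renin numbered 1427 at 5 CPM and 2209 with scaled TPM. Fewer genes or libraries enter the filtered and reduced fits; otherwise the cause was not tested.

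Of the named genes, 6 changed sign, Sdha (0.01) was -0.0456 with scaled TPM, -0.0253 without the atrial libraries and -0.0241 to 0.0753 over single omissions; Adgre1 (0.06) was -0.0691 with scaled TPM and -0.0413 to 0.258 over omissions. Over omissions Ryr2 ranged from -0.0953 to 0.025, Scd1 from -0.441 to 0.181, Ace from -0.157 to 0.0138 and Col1a1 from -0.012 to 0.594. Chow libraries were shallower than all high-fat ones; thinned to the smallest library, 9 genes were called, all among the 10.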
